A study of Homo sapiens
Mus musculus with 16 samples.

Results

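The 10 genes described here mark endothelial cells, the cells that line blood vessels, and were read from the mouse counts of human tumours grown in mice. They were chosen by name: Pecam1 (ENSMUSG00000020717), Cdh5 (ENSMUSG00000031871), Kdr (ENSMUSG00000062960), Flt1 (ENSMUSG00000029648), Tek (ENSMUSG00000006386), Vwf (ENSMUSG00000001930), Emcn (ENSMUSG00000054690), Cldn5 (ENSMUSG00000041378), Angpt2 (ENSMUSG00000031465) and Plvap (ENSMUSG00000034845). They are 10 of the 48795 genes in the mouse count matrix, and all 10 were among the 15074 that passed the filter on low counts. The tumours grew from MDA-MB-231, an established line of human breast cancer cells that lack hormone receptors and HER2. Balb/c nude mice each received 2 M of these cells in 50 µl of buffer and Matrigel in a mammary fat pad, and every tumour was excised on day 50. Each of 4 groups held 4 mice. The combination group received nab-paclitaxel, in which the taxane paclitaxel is bound to albumin, at 30 mg/kg on days 15, 22 and 29, together with phenelzine, a monoamine oxidase inhibitor, at 40 mg/kg daily from day 15. The nab-paclitaxel group and the phenelzine group received the same dosing of 1 of these drugs, and the vehicle group received vehicle. All injections were intraperitoneal. Nude mice lack a thymus and so most T cells, and the tumours come from 1 human line. All 10 genes are therefore read in host cells of a T cell-poor animal, provided that the authors' assignment of reads to mouse or human was right. Whether all of their counts came from vessels was not tested.

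Endothelial cells hold together through adhesion proteins at their junctions, and they grow and survive under vascular endothelial growth factor (VEGF), which acts through receptors on their surface. A second axis, the angiopoietins and their receptor, sets how quiet or how labile a vessel is. Tumour vessels are known for being leaky, irregular and poorly covered by supporting cells. In RNA from whole tumours, fewer endothelial cells and less RNA per endothelial cell cannot be told apart.

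Mouse totals ran from 3.46 to 27.4 M counts per library and human totals from 11.1 to 34.5 M. The share of all counts that were mouse, here called the mouse share, averaged 48.3% ± 22.1 in combination tumours, 36.5% ± 18.1 in nab-paclitaxel tumours, 12.6% ± 3.54 in phenelzine tumours and 21.1% ± 11.5 in vehicle tumours (SD, n = 4 each). It was 71.2%, 47.4%, 55.9% and 18.6% in combination mice 1 to 4, and 59.7%, 23.4%, 21.0% and 41.9% in nab-paclitaxel mice 1 to 4. Vehicle 2, at 37.8%, was the highest of the 8 libraries without nab-paclitaxel. Some values below are also given with the mouse share in the model beside the group means. That share averaged higher in both groups with nab-paclitaxel, so such values cannot separate the drug from the share. Nab-paclitaxel 1 and 4 and combination 1 and 3 stood apart from the rest by their human genes in an earlier analysis of these data. Within host RNA, edgeR's called values over all 16 libraries and the medians over the 10 genes are therefore also given without them. All 4 are among the 5 libraries with mouse shares of 41.9% to 71.2%, in which the sum of the 10 genes was lowest. Leaving them out keeps nab-paclitaxel 2 and 3 and combination 2 and 4. It is therefore not a check independent of the mouse share. Levels below are mouse CPM, that is counts per 1 M mouse counts with TMM scaling, unless a second scale is named, counts per 1 M human plus mouse counts (CPM of both species). The first measures RNA of these genes within host RNA, and the second measures it within all RNA of the tumour.

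No library lacked any of these genes, but counts from whole tumours do not show which cells they came from. The lowest count of a member in a library was 87 (Vwf, phenelzine 1) and the highest was 6778 (Pecam1, vehicle 2). By mean CPM, Cdh5, Plvap and Pecam1 ranked 198, 291 and 330 among the 15074 genes tested, and Tek, the lowest member, ranked 6161. These ranks are not corrected for gene length, so they do not order the genes against each other per transcript.

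Within host RNA, 9 of the 10 endothelial genes had lower levels in the tumours that had received nab-paclitaxel, with or without phenelzine, though Plvap alone passed the test, and Vwf had a higher level. In the contrast of the 8 libraries with nab-paclitaxel against the 8 without, 9 of 10 members had negative log2 fold changes, and the median of the 10 was -1.001, against -0.01 over all genes tested. Of the 10, Plvap fell and 0 rose at edgeR adjusted p under 0.05, where 0.471% of all tested genes fell and 0.325% rose. At an unadjusted p under 0.05 stood 9 of the 10 members, against 20.7% of all genes. These 9 were Vwf, which was higher, and every lower member except Cldn5. The log2 fold change of Plvap was -1.03 (SE 0.205, edgeR adjusted p = 0.0358), and this call held when vehicle 2, vehicle 3, nab-paclitaxel 2, phenelzine 2 or combination 4 was left out; leaving out 1 of the remaining 11 ended it each time, at an adjusted p of at most 0.0948. Without the 4 libraries that stood apart its log2 fold change was -0.73 (edgeR adjusted p = 0.590), and the 10 members ran from -0.75 (Emcn) to 0.23 (Vwf) with a median of -0.48. With the replicate number of the titles as a block, Plvap was at adjusted p = 0.05111 in edgeR. Without combination 4, edgeR called Pecam1, Cdh5, Kdr, Flt1, Emcn and Plvap lower, with 3.32% of genes lower. DESeq2 and voom with quality weights each called Pecam1, Kdr, Flt1, Emcn and Plvap lower over all 16 libraries, with 4.79% of genes lower by DESeq2 and 4.23% by voom.

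**Figure D1:**
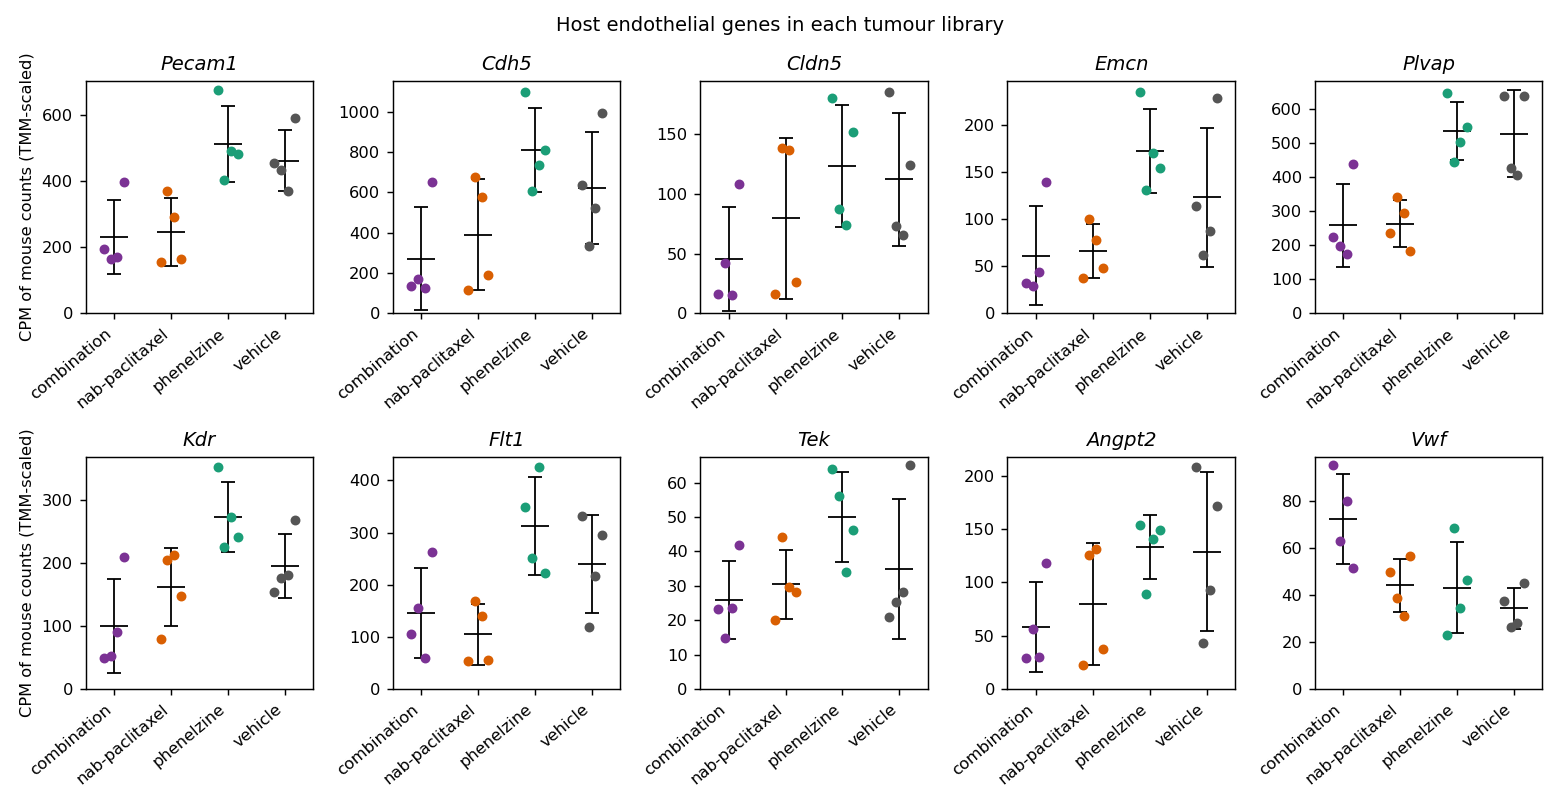
TMM-scaled CPM of each endothelial gene (vertical axes, starting at 0) in the 16 libraries by treatment group; points are libraries in order of mouse number, and bars are the mean and SD of 4. In 9 panels the combination and nab-paclitaxel libraries reach lower than the phenelzine and vehicle libraries, while Vwf is highest with the combination, at 72.4 CPM on average against 34.3 CPM with vehicle.

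Pecam1, Cdh5 and Cldn5 encode proteins of the contacts between endothelial cells: PECAM-1 (CD31), the cadherin of adherens junctions, and a claudin of tight junctions. Pecam1 stood at 194, 163, 169 and 398 CPM in combination mice 1 to 4, 154, 370.0, 293 and 165 CPM in nab-paclitaxel mice, 675, 403, 491 and 483 CPM in phenelzine mice, and 454, 432, 371 and 591 CPM in vehicle mice. All 4 nab-paclitaxel libraries lay below all 4 vehicle libraries, and only combination 4 brought the combination group into the vehicle range. Over all nab-paclitaxel libraries against all without the log2 difference was -1.03 (SE 0.233, edgeR adjusted p = 0.0506), just short of the threshold. With RLE factors in place of TMM in edgeR it was past it, at adjusted p = 0.04998, where 0.61% of all genes fell.

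Cdh5 counts corresponded to 137, 169, 125 and 651 CPM in combination tumours, 117, 674, 578 and 191 CPM in nab-paclitaxel tumours, 1098, 606, 734 and 809.7 CPM in phenelzine tumours, and 638, 333, 522 and 991 CPM in vehicle tumours. Nab-paclitaxel 2 and 3 and combination 4 were within the range of the libraries without the drug, and the other 5 libraries with nab-paclitaxel were below every library without it. Its log2 fold change with nab-paclitaxel was -1.13 (SE 0.425, edgeR adjusted p = 0.155). Cldn5 showed the same division, with 15.8, 42.4, 15.0 and 108 CPM in combination tumours, 16.3, 139, 137 and 26.5 CPM in nab-paclitaxel tumours, 181, 87.8, 73.6 and 152 CPM in phenelzine tumours, and 186, 73.6, 65.2 and 124 CPM in vehicle tumours. It varied most of the 10 genes, 12.4-fold between the lowest and the highest library, and its shift with nab-paclitaxel, -0.98 in log2 units (SE 0.511, edgeR adjusted p = 0.295), was the only one of the 10 with an unadjusted p over 0.05 (0.0762).

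Emcn encodes endomucin, a sialoglycoprotein of the capillary and venous surface, and Plvap encodes the protein of the diaphragms that close endothelial fenestrae and caveolae. Emcn read 32.4, 28.9, 43.7 and 139 CPM in combination tumours, 37.2, 100.2, 77.4 and 47.9 CPM in nab-paclitaxel tumours, 235, 131, 170.1 and 154 CPM in phenelzine tumours, and 114, 61.7, 87.4 and 229 CPM in vehicle tumours. It had the largest negative log2 fold change of the 10 over all nab-paclitaxel libraries against all without, -1.21 (SE 0.363, edgeR adjusted p = 0.0938), which was not past the threshold. Plvap read 223, 198, 173 and 439 CPM in combination tumours, 234, 340.0, 294 and 183 CPM in nab-paclitaxel tumours, 646, 442, 502 and 547 CPM in phenelzine tumours, and 638, 427, 404 and 636 CPM in vehicle tumours. Of the 8 libraries with nab-paclitaxel, combination 4 alone reached the range of those without.

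Kdr and Flt1 encode receptors for VEGF: KDR carries most of the growth signal, and FLT1 binds VEGF tightly with weak signalling of its own. Kdr stood at 49.4, 52.2, 89.8 and 208 CPM in the combination tumours, 79.0, 205, 212 and 148 CPM in the nab-paclitaxel tumours, 352, 225, 272 and 241.3 CPM in the phenelzine tumours, and 154, 176, 180.4 and 268.3 CPM in the vehicle tumours. The combination lay wholly below phenelzine, a pair in which 11.2% of all genes had no overlap in either direction. Nab-paclitaxel also lay wholly below phenelzine, and it overlapped vehicle. The log2 fold change of Kdr was -1.45 for the combination against phenelzine (SE 0.420, edgeR adjusted p = 0.172). It was -0.28 for nab-paclitaxel against vehicle (SE 0.412, edgeR adjusted p = 0.826). The second of these Kdr values ran from -0.43 to -0.05 with 1 library left out, and was 0.13 with the mouse share in the model and 0.09 without the 4 libraries that stood apart. Flt1 levels were 106, 156, 59.6 and 262 CPM in combination tumours, 54.0, 169.5, 139 and 55.8 CPM in nab-paclitaxel tumours, 349, 252.02, 426 and 222 CPM in phenelzine tumours, and 331, 119, 216 and 295 CPM in vehicle tumours. The libraries overlapped in each of the 5 pairs of groups that were tested. For Flt1 too, each nab-paclitaxel library lay below each phenelzine library. The same held for Pecam1, Emcn and Plvap, while Cdh5, Cldn5, Tek, Angpt2 and Vwf overlapped, so it was not particular to the VEGF receptors. That pair of groups was not tested, and no share over all genes was taken for it. The log2 fold change of Flt1 over all nab-paclitaxel libraries against all without was -1.15 (SE 0.335, edgeR adjusted p = 0.0872), and that of Kdr was -0.86 (SE 0.293, edgeR adjusted p = 0.124).

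Angpt2 encodes a ligand made by activated endothelium that can loosen vessels, and Tek encodes TIE2, the receptor it binds. Angpt2 stood at 29.1, 56.1, 29.6 and 119 CPM in combination tumours, 22.8, 126, 131 and 37.8 CPM in nab-paclitaxel tumours, 154, 88.9, 141 and 149 CPM in phenelzine tumours, and 208, 42.8, 92.9 and 172 CPM in vehicle tumours. Tek stood at 23.3, 14.9, 23.5 and 41.8 CPM in combination tumours, 19.97, 44.1, 29.6 and 28.3 CPM in nab-paclitaxel tumours, 64.0, 56.0, 33.9 and 46.1 CPM in phenelzine tumours, and 20.9, 25.3, 28.3 and 65.0 CPM in vehicle tumours. All groups overlapped for both genes. Over all nab-paclitaxel libraries against all without, the log2 fold change was -0.95 for Angpt2 (SE 0.427, edgeR adjusted p = 0.226) and -0.58 for Tek (SE 0.267, edgeR adjusted p = 0.238), the smallest shift of the 9 that were lower.

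Vwf encodes von Willebrand factor, the clotting protein that endothelial cells and platelets store and that captures platelets at a damaged wall. It read 95.2, 62.9, 79.95 and 51.4 CPM in combination mice, 49.8, 38.7, 31.2 and 56.5 CPM in nab-paclitaxel mice, 23.0, 68.4, 34.5 and 46.3 CPM in phenelzine mice, and 37.4, 26.5, 28.0 and 45.1 CPM in vehicle mice. Each combination library was above each vehicle library. The log2 fold change of the combination against vehicle was 1.08 (SE 0.307, edgeR adjusted p = 0.221), and that of all nab-paclitaxel libraries against all without was 0.56 (SE 0.215, edgeR adjusted p = 0.164). Neither passed the threshold.

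In the comparisons of single groups, no member passed edgeR's adjusted threshold over all 16 libraries. With nab-paclitaxel against vehicle, 0 of 10 members passed, where 0% of all genes rose and 0% fell. At an unadjusted p under 0.05 there were 3 members, against 11.9% of genes. The median log2 fold change of the members was -0.69, and their libraries did not overlap for Pecam1 and Plvap, both lower, against 5.61% of all genes in either direction. DESeq2 called Plvap lower there (log2 fold change -0.998, DESeq2 adjusted p = 0.04533), with 0.681% of genes lower. Without the 4 libraries that stood apart, 5 of the 10 values were negative and the median was 0.0017: Plvap was at -0.74, Flt1 at -0.64, Pecam1 at -0.49 and Emcn at -0.47, while Cdh5, Kdr, Tek and Cldn5 had turned positive, at 0.0063, 0.09, 0.08 and 0.30. With the mouse share in the model the median was -0.03, and Kdr, Tek, Cldn5 and Angpt2 were positive.

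With the combination against vehicle, 0 of 10 members passed, where 0.0199% of genes rose and 0.0133% fell. An unadjusted p under 0.05 was found for 4, against 13.7% of genes: Pecam1, Kdr and Plvap were lower and Vwf was higher. The median log2 fold change was -1.01, with a range of -1.32 (Cldn5) to 1.08 (Vwf). Vwf was the only member whose groups did not overlap, against 5.27% of genes. DESeq2 called Vwf higher (adjusted p = 0.03942, with 1.08% of genes higher) and Plvap lower (adjusted p = 0.03123, with 1.09% lower). Without combination 4 edgeR called Plvap lower as well, at -1.40 on the log2 scale (edgeR adjusted p = 0.0362), with 0.192% of genes lower. Without the 4 libraries that stood apart the median was -0.55, with Vwf at 0.76, and with the mouse share in the model it was 0.01.

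With the combination against phenelzine, 0 of 10 passed, where 0% of genes rose and 0.00663% fell, yet 8 had an unadjusted p under 0.05, against 18.1% of genes. Of these 8, Vwf alone was higher. The median log2 fold change was -1.18, the furthest from 0 of the 8 treatment contrasts, and Pecam1, Kdr and Plvap were lower with no overlap, against 11.2% of genes. Without combination 4, Pecam1, Cdh5, Kdr, Emcn and Plvap fell, at log2 fold changes of -2.50 (Cdh5) to -1.44 (Plvap) and edgeR adjusted p of 0.0233 to 0.0381, with 1.8% of genes lower. DESeq2 called Pecam1, Kdr and Plvap lower, with 1.97% of genes lower, and voom with quality weights called Kdr, Emcn and Plvap lower, with 2.18% of genes lower. The median was -0.77 without the 4 libraries that stood apart and -0.14 with the mouse share in the model. The comparisons against vehicle and those with the combination share libraries, so their values are not independent of each other.

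With phenelzine against vehicle in mouse CPM, all 10 log2 fold changes were positive, from 0.02 (Plvap) to 0.52 (Tek), with a median of 0.36. No member passed, where 0% of genes rose or fell, and 0 members had an unadjusted p under 0.05, against 6.11% of genes. The libraries overlapped for all 10, against 2.02% of genes without overlap. DESeq2 and voom also called 0. The 95% interval of the Cdh5 log2 fold change ran from -0.88 to 1.66 and that of Plvap from -0.59 to 0.63. On the scale of both species all 10 values for phenelzine against vehicle were negative. Their median there was -0.26, against -0.81 over all genes. With the mouse share in the model, in mouse CPM, 4 of the 10 were negative and the median was 0.07. It was 0.35 without the 4 libraries that stood apart, none of which is in these groups. Adding phenelzine to nab-paclitaxel gave a median of -0.18 (-0.30 without the 4 libraries that stood apart). In that comparison 0 of 10 were past the threshold, where 0.00663% of genes rose and 0.0133% fell. Only Vwf, at 0.72 (SE 0.303, edgeR adjusted p = 0.851), had an unadjusted p under 0.05, against 5.53% of genes, and the libraries overlapped for all 10, against 3.87% of genes without overlap. All phenelzine libraries against all without had a member median of 0.01 (-0.01 without the 4 libraries that stood apart). No member was called there, where 0.0199% of genes rose and 0.00663% fell. Vwf alone had an unadjusted p under 0.05, against 3.81% of genes. For the interaction of the drugs 0 members passed, where 0% of genes did in either direction, and 0 had an unadjusted p under 0.05, against 8.15% of genes. Furthest from 0 was Kdr at -1.17 (SE 0.584, edgeR adjusted p = 0.617). The member median of the interaction was -0.55, and -0.57 without the 4 libraries that stood apart.

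On the second scale, CPM of both species, the 9 endothelial genes other than Vwf did not pass the test for nab-paclitaxel in either direction, while most mouse genes rose. The sum of the 10 genes was 502 ± 77.2 in combination tumours, 445 ± 63.1 in nab-paclitaxel tumours, 361 ± 73.5 in phenelzine tumours and 472 ± 161 in vehicle tumours (SD, n = 4 each). The same sum in CPM of mouse counts was 1269 ± 768 in combination tumours, 1463 ± 706 in nab-paclitaxel tumours, 2966 ± 590.1 in phenelzine tumours and 2478 ± 772 in vehicle tumours. Set over the vehicle mean, the sum in mouse CPM was 0.512 for the combination and 0.590 for nab-paclitaxel, against 1.06 and 0.943 on the scale of both species.

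In the contrast of all nab-paclitaxel libraries against all without on the scale of both species, the median log2 fold change of the 16028 mouse genes tested was 1.36, and that of the 10 members was 0.20. Of all genes, 81.1% rose and 0.187% fell at edgeR adjusted p under 0.05, and of the 10 members Vwf rose and 0 fell. The log2 fold change was -0.08 for Cdh5 (SE 0.298, edgeR adjusted p = 0.813) and 0.25 for Plvap (SE 0.312, edgeR adjusted p = 0.450). Tek was at 0.70 (SE 0.356, edgeR adjusted p = 0.0728). Vwf was at 2.03 (SE 0.446, edgeR adjusted p = 0.00317), with 64.5, 32.9, 45.6 and 9.40 CPM of both species in combination mice, 30.3, 9.07, 6.54 and 23.0 in nab-paclitaxel mice, 2.27, 10.6, 3.16 and 7.19 in phenelzine mice and 4.73, 10.9, 5.44 and 5.84 in vehicle mice. Vwf also rose with the combination against phenelzine, with a log2 difference of 2.71 (SE 0.647, edgeR adjusted p = 0.00509), the 1 member of 10 called there, where 83.9% of genes rose and 0.0562% fell. With nab-paclitaxel against vehicle 0 members were called, where 0.00624% of genes rose and 0% fell. Without the 4 libraries that stood apart, an alternative added after the data were seen, no member was called on this scale: Vwf was at 1.04 for all nab-paclitaxel libraries against all without (edgeR adjusted p = 0.2717) and at 1.86 for the combination against phenelzine (edgeR adjusted p = 0.07143). Every member other than Vwf lay below the median of all genes on both scales. Plvap was at 0.25 beside 1.36 here and at -1.03 beside -0.01 in mouse CPM. A change of library size moves all mouse genes of a library alike. The place of a gene relative to that median is therefore nearly kept by construction, and the scales are not separate evidence.

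**Figure D2:**
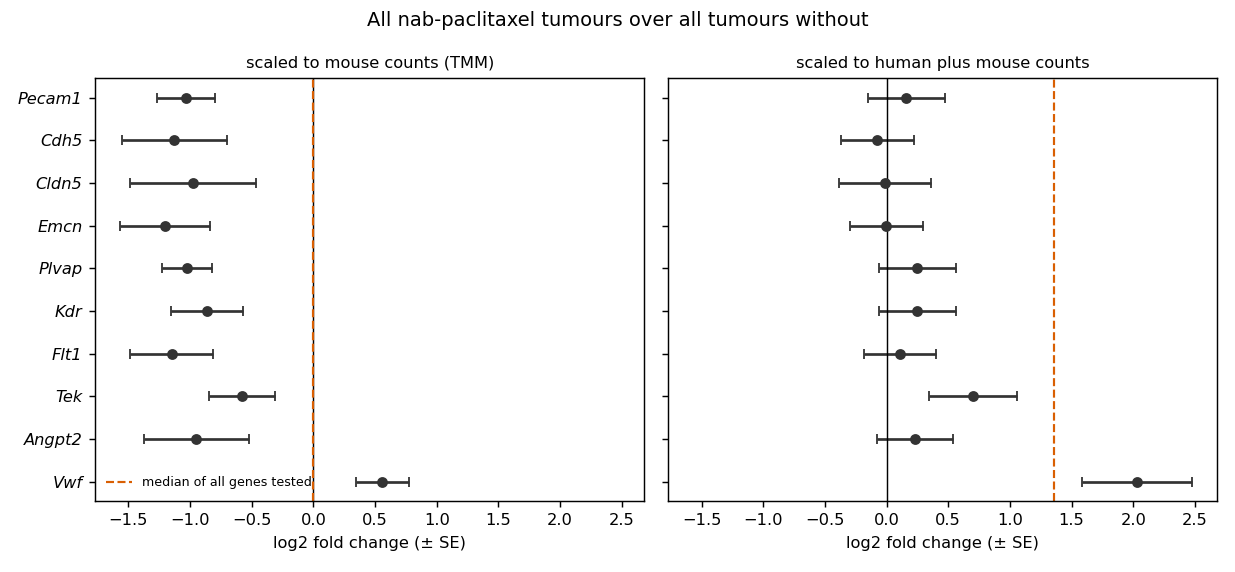
Log2 fold change with its standard error (horizontal axis) of each endothelial gene for all libraries with nab-paclitaxel against all without, scaled to mouse counts (left) and to human plus mouse counts (right); the dashed line is the median of all mouse genes tested. On the left 9 genes lie below 0 and Vwf above it; on the right Vwf is at 2.03, past the gene median of 1.36, and the other 9 lie between -0.08 and 0.70.

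Libraries with a high mouse share had low summed levels, though not in strict order. The 5 libraries with nab-paclitaxel whose mouse share was 41.9% to 71.2% had summed levels of 784 to 943 CPM, and the 3 at 18.6% to 23.4% had 1922 to 2418 CPM. Among vehicle libraries, vehicle 2, with a mouse share of 37.8%, had the lowest sum, 1717 CPM, and vehicle 4, at 13.6%, the highest, 3417 CPM. The lowest sum in the phenelzine group was 2360.0 CPM in phenelzine 2 (mouse share 15.2%) and the highest was 3776 CPM in phenelzine 1 (9.97%). The order did not hold throughout: phenelzine 4, with the highest share of its group (16.1%), had 2851 CPM, phenelzine 3, with the lowest (9.25%), had 2879 CPM, and combination 3 (55.9%) lay below combination 1 (71.2%). The mouse counts enter both the mouse share and the CPM denominator, so these measures are tied by construction.

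**Figure D3:**
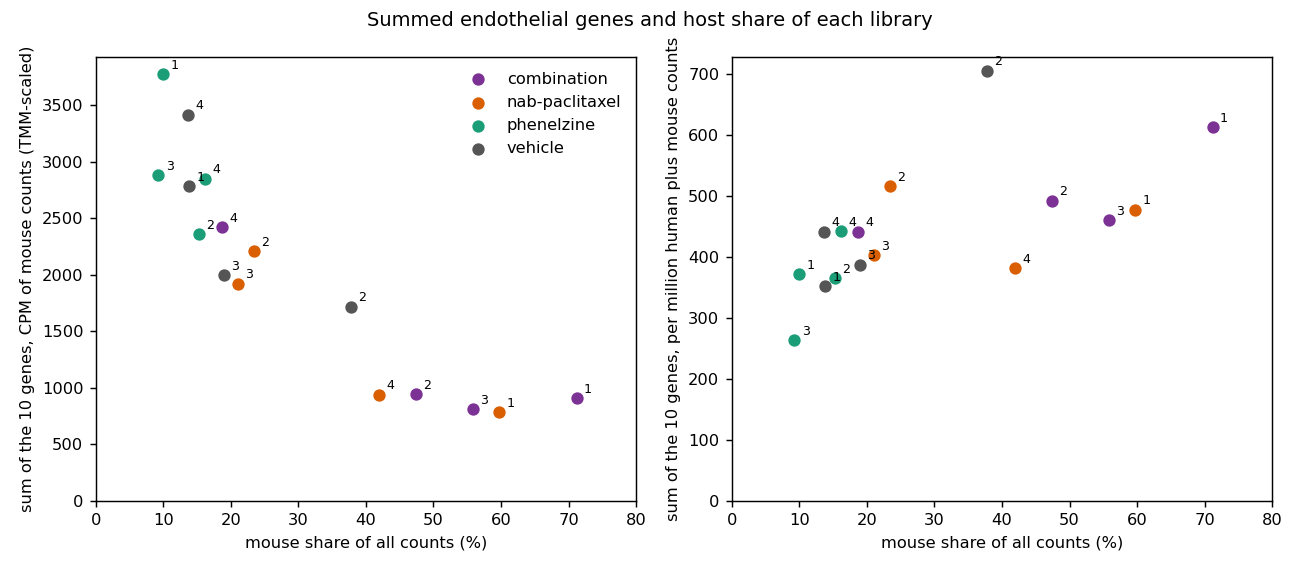
Sum of the 10 endothelial genes (vertical axes) against the mouse share of all counts (horizontal axes, %) in 16 libraries, numbered by mouse and coloured by group, in CPM of mouse counts (left) and CPM of both species (right). The CPM sum drops to 784 to 943 CPM in the 5 libraries with a share of 41.9% to 71.2%, all with nab-paclitaxel, while the sum on the right lies between 264 and 707 with vehicle 2 the highest.

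The mouse share was then added to the model beside the group means, a test chosen after the data were seen. Its slope is the log2 change of a gene per 10 points of mouse share among libraries of the same group. A single slope was fitted for all groups, and whether it was alike in each was not tested. The share ran from 18.6% to 71.2% with the combination and 21.0% to 59.7% with nab-paclitaxel. It ran from 9.25% to 16.1% with phenelzine and 13.6% to 37.8% with vehicle, so the groups with nab-paclitaxel weigh most. Of the 10 members 7 fell with the share and 0 rose, where 3.09% of all genes fell and 0.425% rose, and 9 had an unadjusted p under 0.05, against 18.5% of genes. The median slope of the members was -0.36, against 0.01 over all genes, and it was -0.40 without the 4 libraries that stood apart. Cldn5 had the steepest slope, -0.63 (SE 0.103, edgeR adjusted p = 0.00478), followed by Angpt2 at -0.57 (SE 0.0731, edgeR adjusted p = 0.000992) and Cdh5 at -0.53 (SE 0.0670, edgeR adjusted p = 0.000829). Emcn, Flt1, Kdr and Pecam1 also fell, at -0.41, -0.38, -0.33 and -0.23, while Plvap at -0.19 (edgeR adjusted p = 0.0643), Tek at -0.20 (edgeR adjusted p = 0.221) and Vwf at 0.13 (edgeR adjusted p = 0.383) did not pass.

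Cdh5 and Angpt2 kept their calls with any 1 library left out. Without combination 4 the other 5 calls were lost, where 0.55% of all genes fell, against 3.09% over all 16 libraries. Slopes there were -0.67 for Cldn5, -0.42 for Flt1, -0.35 for Emcn, -0.26 for Kdr and -0.19 for Pecam1. Those of Cldn5 and Flt1 were steeper than over all 16 libraries, and those of Emcn, Kdr and Pecam1 were shallower. The call of Pecam1 was also lost without vehicle 4, combination 3 or any 1 of the 4 nab-paclitaxel libraries. Without the 4 libraries that stood apart, Cdh5, Flt1, Emcn and Angpt2 remained called, while Cldn5 at -0.41, Kdr at -0.39 and Pecam1 at -0.27 were not. With the replicate number as a block, Pecam1 (edgeR adjusted p = 0.06908) and Kdr (0.06399) were not called and Plvap (0.03218) was. With no filter on low counts Pecam1 was not called (0.0765). With the mouse share in the model, no member was called for nab-paclitaxel, and the log2 fold change of Plvap was -0.58 (edgeR adjusted p = 0.7147). Because the share itself was higher with the drug, the loss of the call does not tell the drug and the share apart. On the scale of both species Pecam1, Tek, Vwf and Plvap rose with the share, where 83.1% of all genes rose and 0.299% fell, and Cdh5, Cldn5 and Angpt2 had slopes of -0.10, -0.19 and -0.14 that did not pass. DESeq2 and voom also called Plvap lower with the share in mouse CPM, beside the 7. Of all genes, 6.2% fell by DESeq2 and 7.79% by voom, against 3.09% by edgeR.

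**Figure D4:**
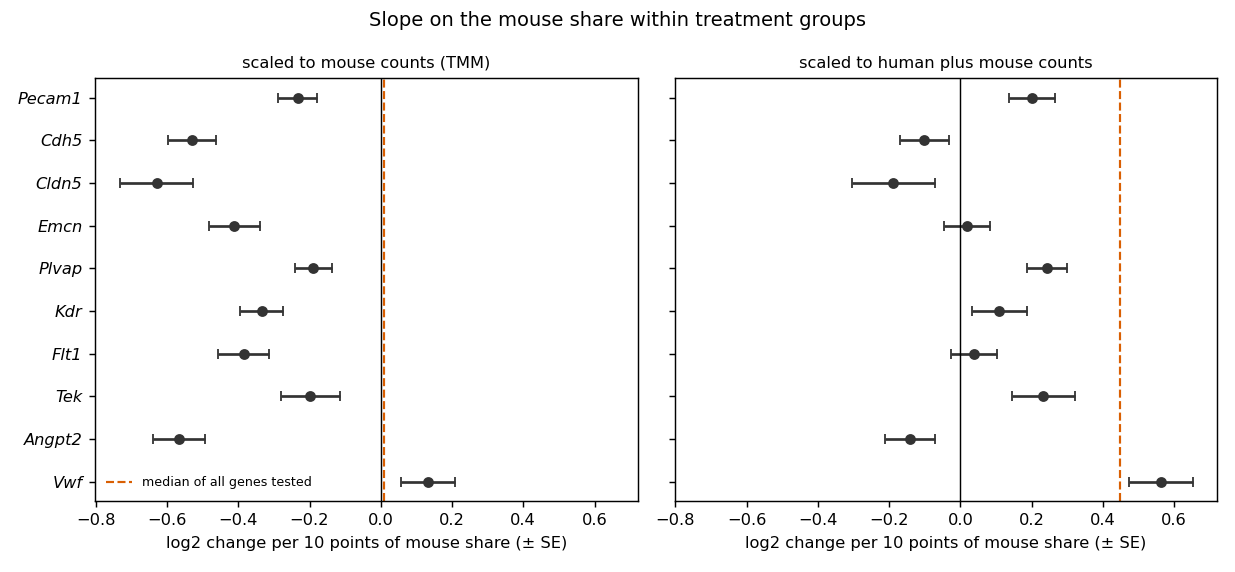
Slope of each endothelial gene on the mouse share within treatment groups (horizontal axis, log2 change per 10 percentage points, with its standard error), scaled to mouse counts (left) and to human plus mouse counts (right); the dashed line is the median of all mouse genes tested. Cldn5, Angpt2 and Cdh5 lie furthest to the left in both panels and Vwf furthest to the right.

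The members other than Vwf followed each other closely. As a description of likeness over the 16 libraries, which share 1 scaling, Pearson r of log2 CPM with Cdh5 was 0.95 for Emcn, 0.94 for Angpt2, 0.94 for Pecam1, 0.94 for Cldn5, 0.90 for Kdr, 0.90 for Plvap, 0.87 for Flt1 and 0.77 for Tek. In the order of likeness to Cdh5 among 15073 other genes, Emcn was at place 52, Angpt2 at 60, Pecam1 at 65 and Cldn5 at 79, and Tek at 845. Vwf was at place 13856, with r of -0.62. After subtraction of the group means, the 36 pairs without Vwf had r from 0.37 to 0.93 with a median of 0.80, and the 9 pairs with Vwf from -0.51 to -0.02.

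Ratios of counts within a library do not depend on any scaling, and 3 of them, chosen after the values had been seen, are given as a description with no test. Counts are not per length, so only the change of a ratio between libraries can be read. Vwf counts per 100 Cdh5 counts were 69.3, 37.1, 63.8 and 7.89 in combination tumours, 42.7, 5.75, 5.39 and 29.6 in nab-paclitaxel tumours, 2.09, 11.3, 4.70 and 5.72 in phenelzine tumours, and 5.86, 7.97, 5.37 and 4.55 in vehicle tumours. The 5 libraries with the highest ratios all had nab-paclitaxel, and the other 3 with the drug lay among those without. The geometric mean ratio was 4.03-fold higher with nab-paclitaxel, a log2 difference of 2.01 over 8 libraries with the drug and 8 without. It was 1.77 to 2.30 with 1 library left out and 0.85 without the 4 libraries that stood apart. The 5 high ratios were in the libraries with mouse shares of 41.9% to 71.2%, and vehicle 2, at a share of 37.8%, had 7.97; the part of the mouse share in this ratio was not tested.

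**Figure D5:**
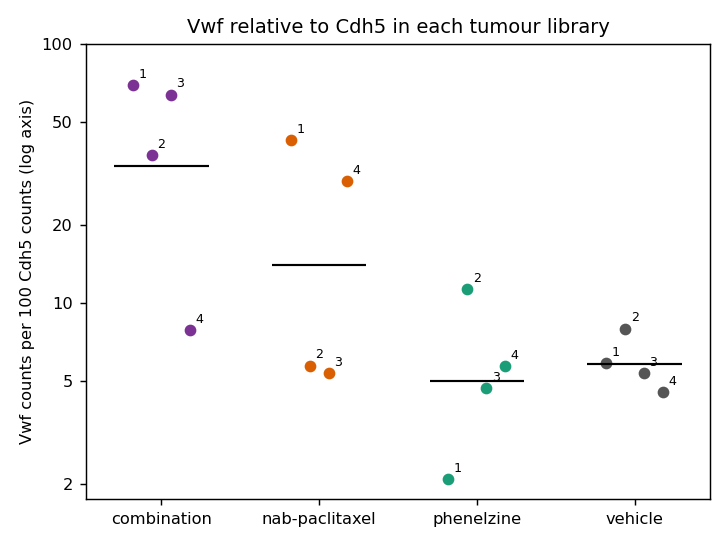
Vwf counts per 100 Cdh5 counts (log axis) in each library by treatment group, numbered by mouse, with lines at the mean of the log ratios. Combination 1, 2 and 3 and nab-paclitaxel 1 and 4 lie at 29.6 to 69.3, and the other 11 libraries at 2.09 to 11.3.

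Angpt2 per Tek count, the ligand set against its receptor, was 1.25, 3.77, 1.26 and 2.83 in combination tumours, 1.14, 2.85, 4.44 and 1.34 in nab-paclitaxel tumours, 2.41, 1.59, 4.16 and 3.24 in phenelzine tumours, and 9.98, 1.69, 3.28 and 2.64 in vehicle tumours. Vehicle 1 was the highest and the groups overlapped, with a log2 difference of -0.57 with nab-paclitaxel. Flt1 per Kdr count was 2.14, 2.98, 0.664 and 1.26 in combination tumours, 0.683, 0.827, 0.657 and 0.378 in nab-paclitaxel tumours, 0.992, 1.12, 1.57 and 0.921 in phenelzine tumours, and 2.14, 0.677, 1.197 and 1.10 in vehicle tumours. Combination 1 and 2 and vehicle 1 had the highest ratios and nab-paclitaxel 4 the lowest, and the 8 against 8 difference was -0.25 on the log2 scale.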

How the data were processed

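The authors deposited whole-number counts per Ensembl gene for 16 libraries, 1 matrix of human and 1 of mouse genes. The submitters' processing notes list the builds hg38 and mm10 and, with no role or order, Picard, StringTie, edgeR, HISAT2 2.04 and Trimmomatic 0.36. How reads were divided between species, and whether strand was used, is not given in the sources used here. Mouse genes were tested in R 4.3.3 using edgeR 4.0.16, with TMM factors, minimum count of 10, 1 mean per group, quasi-likelihood F test, Benjamini-Hochberg adjustment over 15074 genes, threshold 0.05. A standard error is the log2 fold change over the root of its F value. The p-values reflect how libraries vary within a group, where 1 library is 1 mouse. DESeq2 1.42.0, voom (limma 3.58.1) and other settings were alternatives. On simulated counts the fit was checked first. Libraries of a group differed far beyond counting noise (chi-square per degree of freedom at least 13.1). The members, lists and tests were chosen with earlier results of these data known. All members are named; their symbols come with the choice of members. The other gene lists, given as symbols, were not analysed here because the files hold Ensembl IDs alone. Groups and replicate numbers come from the sample titles, and the replicate number is used here to number the mice within a group. Correlations of same-numbered phenelzine and vehicle libraries were weakly positive (0.113 to 0.266), which is read from the data and not from the labels. No other pair of groups had a positive value for every number. Over all pairs of groups a library correlated best with its own number in 13 of 48 cases, so no pairing is read from these values. The block is an alternative throughout.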

Additional observations from a re-analysis of the deposited data

Results flagged for a closer look

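In 7 of the 104 sets of 4 libraries examined, 1 library lay far from the other 3; chance gives about 1 in 20. Combination 4 was the highest of its group for Cdh5 (651 CPM), Pecam1 (398 CPM), Emcn (139 CPM) and the sum of the 10 genes (2418 CPM), which are related measures of 1 library; its mouse share was 18.6%, against 47.4% to 71.2% in the other 3. On the scale of human plus mouse counts vehicle 2 was the highest of its group for Pecam1 (178 CPM of both species) and Plvap (176 CPM of both species); its mouse share was 37.8%, the highest of its group. Vehicle 4 was the highest of its group for Tek (65.0 CPM).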

How the results depend on the processing

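Counts of members called depended on the tool, the scale and single libraries; the cause was not tested. The percentages in brackets are the shares of all genes called in the same direction, and shares for the other settings are not given here. For all nab-paclitaxel libraries against all without, edgeR's 1 call (0.471% lower) became 2 with RLE factors (0.61% lower). It became 5 with DESeq2 (4.79% lower) and 5 with voom and quality weights (4.23% lower). The count was 0 once the mouse share was in the model and 0 when the 4 libraries that stood apart were left out. With 1 library left out it was 0 to 6, and 6 without combination 4 (3.32% lower). DESeq2 called 1 member for nab-paclitaxel against vehicle (0.681% lower) and 2 for the combination against vehicle (1.08% higher, 1.09% lower). For the combination against phenelzine DESeq2 called 3 (1.97% lower), voom 3 (2.18% lower) and the scale of both species 1 (83.9% higher). Leaving out 1 library gave 0 to 1 for the combination against vehicle and 0 to 5 for it against phenelzine. Both maxima came without combination 4 (0.192% and 1.8% lower). For the mouse share slope, the 7 falls (3.09% lower) gave way to 4 rises on the scale of both species (83.1% higher). These rises were of Pecam1, Tek, Vwf and Plvap. The 7 falls became 4 without the 4 libraries that stood apart, and 2 to 8 with 1 library left out. The 2 were without combination 4 (0.55% lower). On the scale of both species, where the median of all genes was 1.36 for nab-paclitaxel and 0.45 for the slope, the log2 fold change of Plvap with nab-paclitaxel turned to 0.25, and slopes turned to 0.20 for Pecam1, 0.11 for Kdr, 0.038 for Flt1, 0.23 for Tek, 0.019 for Emcn and 0.24 for Plvap. The summed level over vehicle was there 1.06 for the combination, 0.943 for nab-paclitaxel and 0.765 for phenelzine; with 1 library left out in mouse CPM it was 0.357 to 0.586 for the combination, 0.490 to 0.682 for nab-paclitaxel and 1.09 to 1.37 for phenelzine. In mouse CPM, the sign of a gene's value changed in 63 of 1440 values with 1 library left out, in 31 of 80 with the mouse share in the model and in 8 of 90 without the 4 libraries that stood apart. With both the other scale and those 4 libraries left out, 0 members were called for nab-paclitaxel.

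Mouse numbers are the replicate numbers of the titles, and no label says that they mark pairs. Correlations of same-numbered libraries ran from -0.172 to 0.306 and exceeded 0.1 in 11 of 24, among them all 4 of phenelzine with vehicle, and a library correlated best with its own number in 13 of 48 cases. With the replicate block, 0 members were called for all nab-paclitaxel libraries against all without (Plvap -1.02, edgeR adjusted p = 0.05111), and none for phenelzine against vehicle, as without it. The lowest counts were 87 for Vwf and 100 for Tek.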
